A study of Mus musculus with 12 samples.

Results

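The striated muscle miRNAs, often called myomiRs, are listed in the deposited table as mmu-mir-206-3p, mmu-mir-1a-3p, mmu-mir-133a-3p, mmu-mir-133b-3p and mmu-mir-499-5p, and are written without the prefix from here on. They were chosen by name, from what is known of muscle, but with earlier results of these data known. Counts of calls and ranks below therefore describe the set and do not test it. They make up 5 of the 1251 miRNA rows of a small RNA sequencing table of mouse skin and skin tumours. All 5 rows passed the filter on low values, which asked for a value above the floor in at least 2 of the 12 libraries. mmu-mir-499-5p passed it through tumour libraries alone.

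The study, whose title concerns miRNAs regulated by TAp63 in cutaneous squamous cell carcinoma (SCC), measured 12 libraries from mice of the C57Bl6 strain. p63, a relative of p53, is a transcription factor of the epidermis, and TAp63 is its form with a full transactivation domain. TAp63-/- SCC (4 libraries) came from knockout mice older than 35 weeks that had been given chronic ultraviolet radiation (UVR) at 2.5 kJ per square metre, 3 times a week. WT SCC (2 libraries) came from wild-type mice of that age and under that UVR schedule. TAp63-/- skin (3 libraries) and WT skin (3 libraries) were dorsal skin of untreated mice aged 4 weeks. The tumour and skin libraries thus differ in age and UVR as well as in tissue, and these cannot be told apart. Their titles also begin with different letters, LM for tumours and Su for skin, which the labels do not explain. The labels do not say how the TAp63-/- allele was made or in which cells it acts, and the table holds miRNAs only, so the knocked-out gene cannot be read from it. Each sample has its own source name, but no label states that each is a separate mouse, so p-values measure the spread between these samples.

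miRNAs are short RNAs that bind messenger RNAs mainly through their seed, the bases near the 5′ end, and lower the output of those messages. miR-1a and miR-206 share a seed and promote the differentiation of myoblasts, while miR-133a and miR-133b share another seed and are linked to myoblast proliferation. miR-1a and miR-133a are made in heart and skeletal muscle, miR-206 and miR-133b mainly in skeletal muscle, and miR-499 in heart and slow muscle fibres from within a myosin gene. Mouse dorsal skin lies on the panniculus carnosus, a thin sheet of striated muscle, and the labels do not say how much of it the dissected pieces held.

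Of the 5 miRNAs, 3 matched an entry of the RefSeq sequence table for GRCm38.p6. miR-1a-3p and miR-133a-3p are given by name. The mature sequences are shown 5′ to 3′ with the seed, bases 2 to 8, in capitals. The 2 relatives from the cardiac myosin genes, miR-208a-3p and miR-208b-3p, are printed below them because their 5′ ends resemble that of miR-499-5p.
miR-206-3p: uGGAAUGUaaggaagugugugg
miR-133b-3p: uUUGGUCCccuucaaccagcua
miR-499-5p: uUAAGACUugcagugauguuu
miR-208a-3p: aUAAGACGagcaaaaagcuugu
miR-208b-3p: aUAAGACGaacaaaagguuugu
miR-499-5p matched miR-208a-3p and miR-208b-3p at 6 of the first 8 bases. Both miR-208 miRNAs were at the floor in all 12 libraries.

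The hairpins of miR-206 and miR-133b lie within 1 noncoding gene and are shown because the levels of their products are compared further on. Whether a single transcript of that gene holds both was not examined. The measured arm is in capitals, and the hairpin of miR-499 follows.
Mir206: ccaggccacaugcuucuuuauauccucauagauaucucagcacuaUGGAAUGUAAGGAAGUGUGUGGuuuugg
Mir133b: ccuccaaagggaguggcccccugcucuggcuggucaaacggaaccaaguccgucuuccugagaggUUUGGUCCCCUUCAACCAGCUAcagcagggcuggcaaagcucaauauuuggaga
Mir499: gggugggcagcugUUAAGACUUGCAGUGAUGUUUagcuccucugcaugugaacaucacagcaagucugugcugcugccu
In GRCm38.p6, mature miR-206-3p lies at chr1:20679055-20679076 and miR-133b-3p at chr1:20682834-20682855, both on the plus strand. Their hairpins are 3686 bases apart, and both overlap exons of the long intergenic noncoding RNA Gm28653 on the same strand. miR-499-5p lies at chr2:155622893-155622913 on the plus strand, in an intron of Myh7b, a myosin heavy chain gene. Each of miR-1a-3p and miR-133a-3p has 2 hairpins on different chromosomes, so a measured value belongs to no single locus. On chromosome 2, Mir1a-1 (chr2:180389048-180389124) and Mir133a-2 (chr2:180398379-180398482) overlapped no host gene in the annotation used.

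Levels are the authors' deposited log2 values, which from the values themselves appear quantile normalized between libraries and floored at a linear value of 10 (3.32 on the log2 scale). Between 432 and 545 miRNAs lay above the floor in TAp63-/- SCC, 402 and 420 in WT SCC, 370 to 465 in TAp63-/- skin and 390 to 433 in WT skin. Such values hold no read totals, so depth is unknown and no counting interval is given. The keratinocyte miRNAs fixed as markers of the tissue were abundant, with a summed share of 5.24% to 10.5% of all linear values in TAp63-/- SCC, 7.44% to 8.43% in WT SCC, 5.45% to 6.66% in TAp63-/- skin and 5.54% to 7.53% in WT skin.

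Of the 5 striated muscle miRNAs, 4 were abundant in untreated skin and far lower in SCC of both genotypes. miR-206-3p fell most, then miR-1a-3p, and miR-133a-3p and miR-133b-3p fell by similar amounts. miR-499-5p did not share this pattern: it was at the floor in all 6 skin libraries and above it in 5 of 6 tumours. None of the 5 was called between genotypes in either tissue.

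miR-206-3p, a differentiation miRNA of skeletal muscle, measured 4.85, 4.01, 5.74 and 3.55 (log2 level) in the 4 TAp63-/- SCC libraries, 4.52 and 6.19 in WT SCC, 10.71, 11.45 and 11.73 in TAp63-/- skin, and 10.57, 11.45 and 10.98 in WT skin. Every tumour lay far below every skin library, and TAp63-/- SCC libraries 2 and 4 were close to the floor. Its rank among all rows, from the most abundant, was 314 to 451 in TAp63-/- SCC, 294 to 374 in WT SCC, 85 to 114 in TAp63-/- skin and 91 to 118 in WT skin.

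miR-1a-3p, which shares the miR-206 seed and is also made in heart, measured 7.59, 7.61, 7.13 and 5.61 (log2 level) in TAp63-/- SCC, 6.56 and 8.62 in WT SCC, 11.67, 11.26 and 12.25 in TAp63-/- skin, and 11.67, 12.002 and 11.45 in WT skin. Tumours and skin did not overlap, and the highest tumour was WT SCC library 2. Quantile normalization gives each rank a set value, so libraries can share the same value for a miRNA, as 1 library of each skin genotype did here.

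miR-133a-3p, linked to myoblast proliferation, was the most abundant of the 5 in every library. It measured 13.48, 13.48, 13.91 and 12.15 (log2 level) in TAp63-/- SCC, 12.45 and 14.90 in WT SCC, 15.88, 16.02 and 16.29 in TAp63-/- skin, and 16.02, 16.09 and 16.17 in WT skin. Its rank was 48 to 77 in TAp63-/- SCC, 33 to 72 in WT SCC, 17 to 21 in TAp63-/- skin and 18 to 20 in WT skin. The skin libraries kept within a narrow range, and all 6 tumours lay below it.

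miR-133b-3p, from the same noncoding gene as miR-206, measured 7.997, 7.90, 8.35 and 7.01 (log2 level) in TAp63-/- SCC, 7.54 and 8.99 in WT SCC, 10.48, 10.51 and 10.92 in TAp63-/- skin, and 10.92, 10.87 and 10.06 in WT skin. Again no tumour reached the lowest skin library. The mature miR-133a-3p and miR-133b-3p are nearly identical in sequence. How reads were divided between them is not given in the sources used here, so the level of miR-133b-3p beside its far more abundant relative is uncertain.

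miR-499-5p, the product of the Myh7b intron, measured 6.52, 4.10, 6.97 and 3.64 (log2 level) in TAp63-/- SCC and 4.15 in WT SCC library 2. It was listed at the floor in WT SCC library 1 and in all 6 skin libraries. TAp63-/- SCC libraries 1 and 3 stood above the other tumours.

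**Figure D1:**
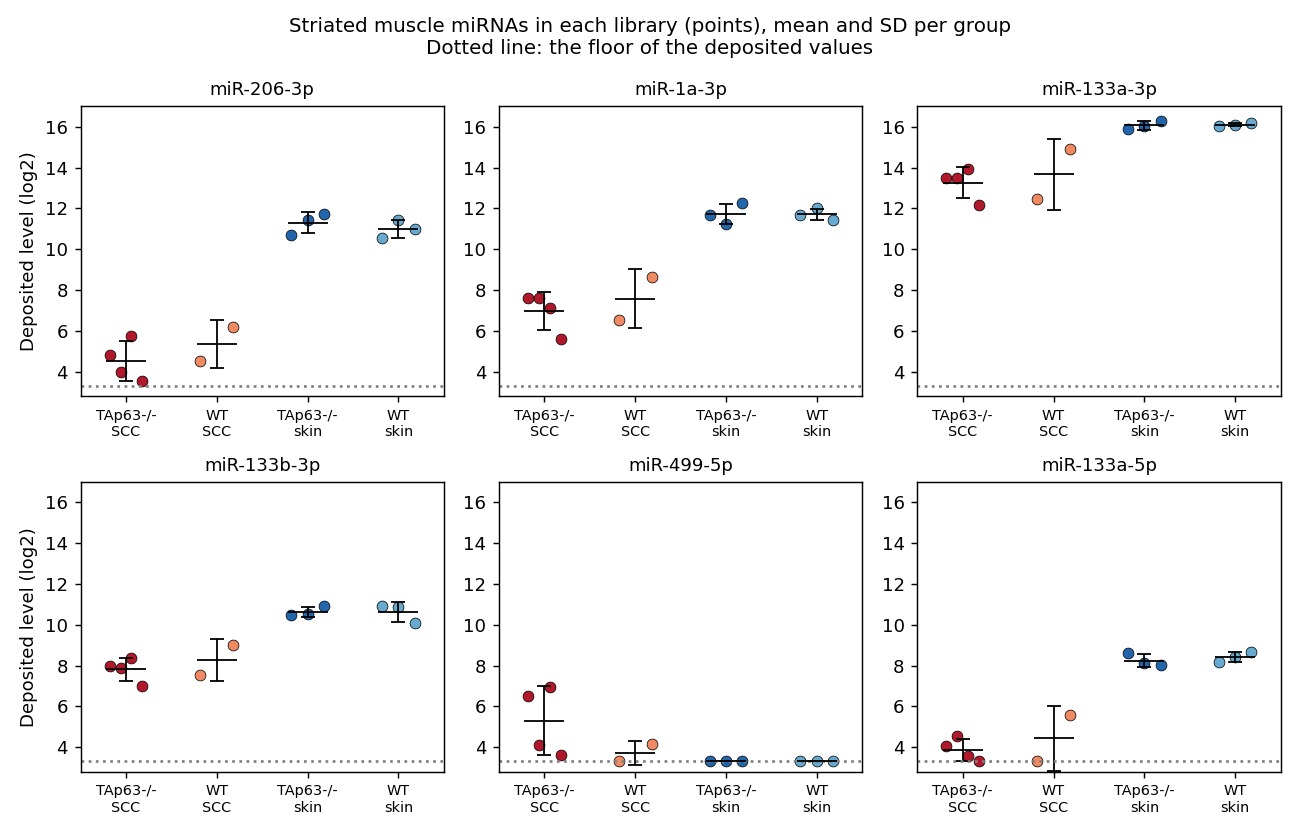
Deposited log2 level (vertical axis) of the 5 striated muscle miRNAs and of miR-133a-5p, the other arm of a miR-133a hairpin, in each library (points), by group, with the group mean and SD (bars) and the floor of 3.32 (dotted line). For every miRNA shown other than miR-499-5p the tumours lie below all skin libraries, and miR-499-5p is at the floor in skin.

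Summed on the linear scale, the 5 miRNAs held 0.0783% to 0.265% of all values in TAp63-/- SCC, 0.0975% to 0.519% in WT SCC, 1.10% to 1.48% in TAp63-/- skin and 1.21% to 1.31% in WT skin. miR-133a-3p alone accounted for 0.0750% to 0.254% in TAp63-/- SCC, 0.0923% to 0.502% in WT SCC, 0.992% to 1.32% in TAp63-/- skin and 1.09% to 1.22% in WT skin. Levels of different miRNAs also carry how well each is captured in a library, so these shares compare libraries rather than molecules.

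The first comparison asked how SCC of TAp63-/- mice differs from TAp63-/- skin. miR-206-3p, miR-1a-3p, miR-133a-3p and miR-133b-3p were called lower, and miR-499-5p was called higher by a narrow margin. With limma across all 544 tested miRNAs and Benjamini-Hochberg adjustment, 4 of the 5 were called lower, against 18.2% of all tested miRNAs, and 1 was called higher, against 16% of all tested (34.2% in either direction). Their median difference was -2.82 (log2), beside 0.05 over all tested miRNAs.

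miR-206-3p averaged 4.54 ± 0.97 (log2 level, SD, n = 4) in TAp63-/- SCC and 11.30 ± 0.52 (n = 3) in TAp63-/- skin. The difference was -6.76 ± 0.55 (log2, SE; 95% confidence interval -7.97 to -5.54), or 108-fold lower, with limma's adjusted p = 4.16e-05. No other tested miRNA had a lower difference in this comparison. On the linear scale the 6 tumours lay at 11.7 to 72.8 against a floor of 10, so the floor limits how large this decrease can appear. With a pseudocount of 100 added to the linear values it was -4.37 (log2).

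miR-1a-3p averaged 6.98 ± 0.95 (log2 level, SD, n = 4) in TAp63-/- SCC and 11.73 ± 0.49 (n = 3) in TAp63-/- skin, which was 26.8-fold lower (adjusted p = 1.90e-04, limma). miR-133a-3p averaged 13.26 ± 0.76 and was 6.97-fold lower than its 16.06 ± 0.21 in TAp63-/- skin (adjusted p = 0.00234, limma). miR-133b-3p averaged 7.82 ± 0.57 and was 7.06-fold lower than its 10.64 ± 0.24 in TAp63-/- skin (adjusted p = 5.46e-04, limma). These 4 calls held with each library left out in turn and under every other setting tried, although miR-1a-3p stood at -3.89 with a pseudocount of 100, against -4.74 as reported (log2). In bulk tissue, fewer cells of a type and less RNA per cell cannot be told apart.

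miR-499-5p was higher in TAp63-/- SCC than in TAp63-/- skin by 1.99 ± 0.71 (log2, SE; limma's adjusted p = 0.04998). The call ended in 6 of 8 other settings and in 10 of 12 fits that left out 1 library, over which limma's adjusted p ran from 0.0109 to 0.121. With a pseudocount of 100 the difference was 0.49 (log2). The floored skin libraries show no spread, so this SE may be too small, while the floor also understates the difference. As miR-499-5p passed the filter through tumours alone, with skin at the floor, only a higher value in SCC could appear. Its call is thus no independent result.

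In WT mice the same comparison, between 2 SCC and 3 skin libraries, again gave 4 of 5 called lower, against 9.38% of all tested miRNAs, and 0 higher, against 8.82%. miR-206-3p averaged 5.35 ± 1.18 (log2 level, SD, n = 2) in WT SCC and 11.001 ± 0.44 (n = 3) in WT skin, 50.2-fold lower (adjusted p = 5.57e-04, limma). miR-1a-3p averaged 7.59 ± 1.46 in WT SCC and 11.71 ± 0.28 in WT skin, 17.4-fold lower (adjusted p = 0.00235, limma). The decreases of miR-133a-3p (5.36-fold, adjusted p = 0.0213) and miR-133b-3p (5.11-fold, adjusted p = 0.00802) were smaller.

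The WT values leaned on few libraries. miR-206-3p was at -4.82 without WT SCC library 1 and -6.49 without WT SCC library 2, against -5.65 with both (log2). miR-1a-3p was at -3.09 and -5.15 in the same fits, against -4.12 with both, and both miRNAs remained called in each. With a pseudocount of 100 they were at -3.88 and -3.48. Without WT SCC library 1, miR-133a-3p was at -1.20 (log2, adjusted p = 0.258, limma) and miR-133b-3p at -1.63 (adjusted p = 0.105), and neither was called. Without WT SCC library 2, miR-133a-3p was at -3.64 and miR-133b-3p at -3.08. Leaving out WT skin library 1, 2 or 3 also ended the call of miR-133a-3p, with limma's adjusted p of 0.0531, 0.0601 and 0.0555. With the WT groups fitted alone, miR-206-3p was still called, and miR-1a-3p (adjusted p = 0.0634), miR-133a-3p (adjusted p = 0.175) and miR-133b-3p (adjusted p = 0.104) were not, by limma. miR-499-5p differed by 0.41 ± 0.85 (log2, SE) between WT SCC and WT skin and was not called (adjusted p = 0.811, limma).

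Averaged over the genotypes, 4 of 5 were called lower, against 21.5% of all tested miRNAs, and 0 higher, against 20.4% (41.9% in either direction). Ranked from the lowest difference of the 544, miR-206-3p was at place 1, miR-1a-3p at place 2, miR-133a-3p at place 18 and miR-133b-3p at place 19. miR-499-5p was at 1.20 ± 0.55 (log2, SE; adjusted p = 0.110, limma) and was called only without TAp63-/- SCC library 4, at 1.48 (adjusted p = 0.0295).

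**Figure D2:**
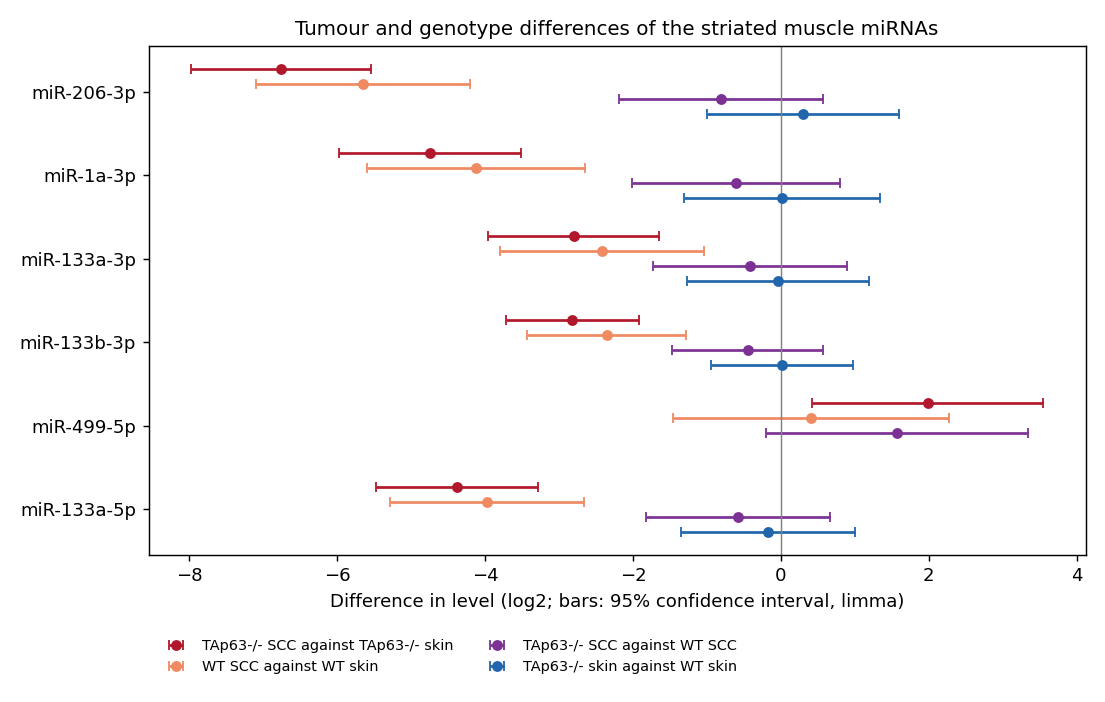
Differences in log2 level (horizontal axis) of the 5 miRNAs and miR-133a-5p in 4 comparisons (colours), as points with 95% confidence intervals from limma; miR-499-5p in skin is left out because all skin libraries were at the floor. SCC against skin lies below 0 for every miRNA but miR-499-5p, from -6.76 for miR-206-3p in TAp63-/- mice, and the intervals of both genotype comparisons include 0.

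The other arms of these hairpins and the remaining striated muscle miRNAs were looked up from a list of 13. Of these, 10 were at the floor in all 12 libraries, among them miR-208a-3p, miR-208b-3p, miR-1b-3p, miR-133c and miR-206-5p. Only 2 were above the floor in enough libraries to be tested, and both were called lower in TAp63-/- SCC than in TAp63-/- skin, where 18.2% of all tested miRNAs were. In WT mice 1 of the 2, miR-133a-5p, was called lower, against 9.38% of all tested, and in the average the same 1, against 21.5%.

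miR-133a-5p measured 4.07, 4.54 and 3.55 (log2 level) in TAp63-/- SCC libraries 1 to 3, with library 4 at the floor. In WT SCC it was at the floor in library 1 and at 5.57 in library 2. It measured 8.60, 8.10 and 8.03 in TAp63-/- skin and 8.15, 8.44 and 8.66 in WT skin, so that tumours and skin did not overlap. The difference was -4.38 ± 0.50 in TAp63-/- mice (log2, SE; adjusted p = 1.64e-04, limma) and -3.97 ± 0.60 in WT mice (adjusted p = 0.00201). With the WT groups fitted alone, the WT comparison gave an adjusted p of 0.0711 (limma). The WT difference was -2.84 without WT SCC library 1 and -5.10 without WT SCC library 2, and a pseudocount of 100 gave -1.81 in TAp63-/- and -1.80 in WT mice (log2). The 3p arm exceeded the 5p arm 455-fold to 1314-fold in SCC, where the floor limits the ratio, and 155-fold to 305-fold in skin.

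miR-1a-1-5p was at the floor in all 4 TAp63-/- SCC libraries, and at 3.77 to 4.79 (log2 level) in the 3 TAp63-/- skin libraries. Between these groups it differed by -0.96 ± 0.31 (log2, SE; adjusted p = 0.0339, limma), a call that ended in 2 of 8 other settings and 6 of 12 fits with 1 library left out. With a pseudocount of 100 the difference was -0.13 (log2). It was above the floor in 1 of 2 WT SCC libraries, at 4.02, and in 1 of 3 WT skin libraries, at 4.33. miR-133b-5p was above the floor in 1 library of TAp63-/- skin, at 3.59, and was not tested.

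The unequal decreases were compared as log2 ratios between miRNAs within a library, which do not change when a library is rescaled by a constant factor. They still depend on the floor and on any normalization by rank, such as quantile normalization. Of 20 tests (5 pairs in 4 comparisons, exact permutation tests, two-sided, adjusted over the 20), 4 were called, all of them between the 6 tumours and the 6 skin libraries, and 1 of the 4 rests on miR-499-5p values that are mostly at the floor. The smallest p that 6 against 6 libraries allow is 0.00216.

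The ratio of miR-206-3p to miR-133b-3p, from 1 noncoding gene, was -3.16 ± 0.47 in SCC and 0.52 ± 0.50 in skin (log2 ratio, SD, n = 6 each). In linear terms it was 12.8-fold lower in SCC, and the tumours did not overlap with skin (exact permutation test, adjusted p = 0.0108). miR-133b-3p exceeded miR-206-3p 6.11-fold to 14.9-fold in every tumour, whereas the skin ratio of miR-206-3p to miR-133b-3p ran from 0.786 to 1.91.

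miR-206-3p and miR-1a-3p, which share a seed, had a log2 ratio of -2.38 ± 0.75 in SCC and -0.57 ± 0.45 in skin (SD, n = 6 each), 3.499-fold lower in SCC without overlap (exact permutation test, adjusted p = 0.0108). The ratio of miR-1a-3p to miR-133a-3p, which share transcripts, was -6.21 ± 0.39 in SCC and -4.36 ± 0.31 in skin, 3.61-fold lower (adjusted p = 0.0108, exact permutation test). miR-133a-3p thus exceeded miR-1a-3p 58.7-fold to 110-fold in SCC and 16.4-fold to 27.1-fold in skin.

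The pair that shares the miR-133 seed showed no called difference. Its ratio, of miR-133b-3p to miR-133a-3p, was -5.43 ± 0.35 in SCC and -5.45 ± 0.35 in skin (log2 ratio, SD, n = 6 each), a difference of 0.02 with overlapping groups (exact permutation test, adjusted p = 1). miR-133a-3p exceeded miR-133b-3p 30.1-fold to 60.1-fold in SCC and 34.3-fold to 69.0-fold in skin. The division of reads between these near-identical miRNAs, named above, bears on this ratio, and its part was not tested.

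miR-499-5p over miR-1a-3p was -2.40 ± 1.63 in SCC and -8.40 ± 0.36 in skin (log2 ratio, SD, n = 6 each; exact permutation test, adjusted p = 0.0108). miR-499-5p was at the floor in 7 of the 12 libraries, all 6 of skin and WT SCC library 1, where the ratio is an upper bound that varies with miR-1a-3p alone. The difference of 5.99 between the tissues therefore holds the decrease of miR-1a-3p (-4.43 in the average) and is not a separate result on miR-499-5p. In TAp63-/- mice alone, where 4 against 3 libraries allow no p under 0.0286, the ratio of miR-206-3p to miR-133b-3p was 15.3-fold lower in SCC (exact permutation test, adjusted p = 0.0816). No pair was called between genotypes, where the smallest possible p is 0.0667 in SCC and 0.1 in skin.

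**Figure D3:**
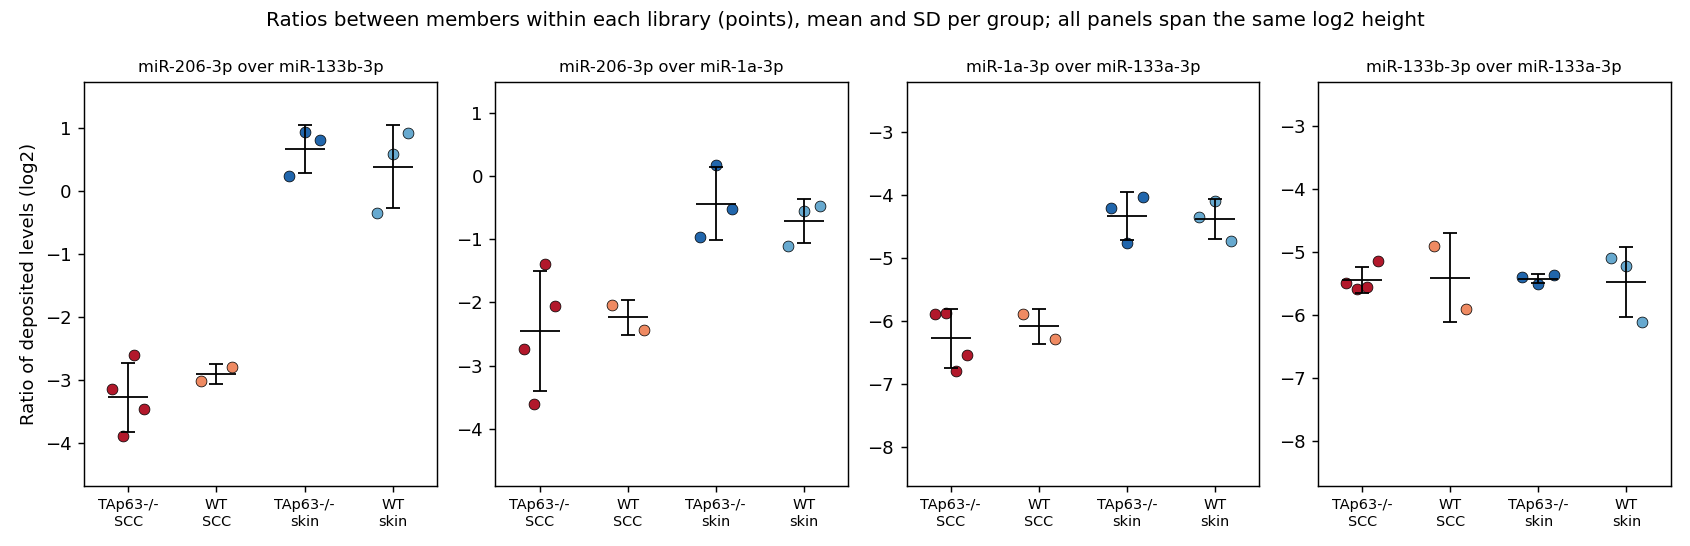
Log2 ratio between 4 pairs of the miRNAs (vertical axis) in each library (points), by group, with the mean and SD (bars); each panel spans the same height. The first 3 ratios are lower in all tumours than in all skin libraries, by 3.68, 1.81 and 1.85, and the ratio of miR-133b-3p to miR-133a-3p differs by 0.02.

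The second question was whether TAp63 loss goes with a different level in either tissue. In skin, TAp63-/- and WT libraries overlapped for every miRNA of the set, and 0 of 5 were called, against 0% of all tested miRNAs. The TAp63-/- minus WT differences in skin were 0.29 (log2; 95% confidence interval -1.004 to 1.59) for miR-206-3p and 0.02 (-1.30 to 1.34) for miR-1a-3p. For the miR-133 pair they were -0.03 (-1.27 to 1.20) for miR-133a-3p and 0.02 (-0.94 to 0.98) for miR-133b-3p. Of all tested miRNAs, 31 were under an unadjusted p of 0.05 by limma and none of the 5 was among them; with library quality weights limma called 22 miRNAs, none of them in the set.

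In SCC, 0 of 5 were called between genotypes, against 0.184% of all tested miRNAs, and none had an unadjusted p under 0.05. The TAp63-/- minus WT difference was -0.81 ± 0.63 for miR-206-3p (log2, SE; 95% confidence interval -2.19 to 0.56; adjusted p = 0.714, limma). It was -0.61 for miR-1a-3p, with an interval of -2.01 to 0.80. The miR-133 pair had -0.42 (-1.72 to 0.89) as miR-133a-3p and -0.45 (-1.47 to 0.58) as miR-133b-3p. Without WT SCC library 2 these 4 differences were 0.02, 0.43, 0.81 and 0.28, so their negative sign rests on that library. miR-499-5p differed by 1.57 ± 0.81 (-0.19 to 3.34; adjusted p = 0.577, limma).

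The tumour effect itself was not called different between the genotypes for any of the 5, against 0% of all tested miRNAs. The TAp63-/- tumour effect minus the WT one was -1.11 for miR-206-3p (log2; adjusted p = 0.821, limma) and -0.62 for miR-1a-3p (adjusted p = 0.875). miR-133a-3p stood at -0.38 (adjusted p = 0.946), miR-133b-3p at -0.47 (adjusted p = 0.875) and miR-499-5p at 1.57 (adjusted p = 0.793). Of all tested miRNAs, 41 had an unadjusted p under 0.05 in this test, none of the 5 among them.

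Ordered by level, miR-206-3p, miR-1a-3p, miR-133a-3p and miR-133b-3p each had TAp63-/- SCC lowest and WT SCC next, with the skin groups above. The order of the tumour groups rests on WT SCC library 2, without which WT SCC was the lowest for each. Within SCC and within skin the neighbouring groups were not called different by limma, and the step between WT SCC and WT skin was called, with the limits given above.

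The spread within groups was wider among tumours for each of the 4 miRNAs that fell. miR-133a-3p had an SD of 0.76 in TAp63-/- SCC and 1.73 in WT SCC (log2), against 0.21 in TAp63-/- skin and 0.08 in WT skin. The 4 miRNAs that fell ordered the extremes of the tumours alike: WT SCC library 2 was the highest and TAp63-/- SCC library 4 the lowest for each of them. As the mean of their deviations from the tumour average, WT SCC library 2 stood at 1.33 and TAp63-/- SCC library 4 at -1.26 (log2). The remaining tumours lay between -0.57 (WT SCC library 1) and 0.45 (TAp63-/- SCC library 3). miR-499-5p had other tumours at the top, with TAp63-/- SCC libraries 3 and 1 highest. Its order was still partly shared: over the 6 tumours its Spearman rho with the 4 ran from 0.43 (miR-1a-3p) to 0.77 (miR-133b-3p).

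**Figure D4:**
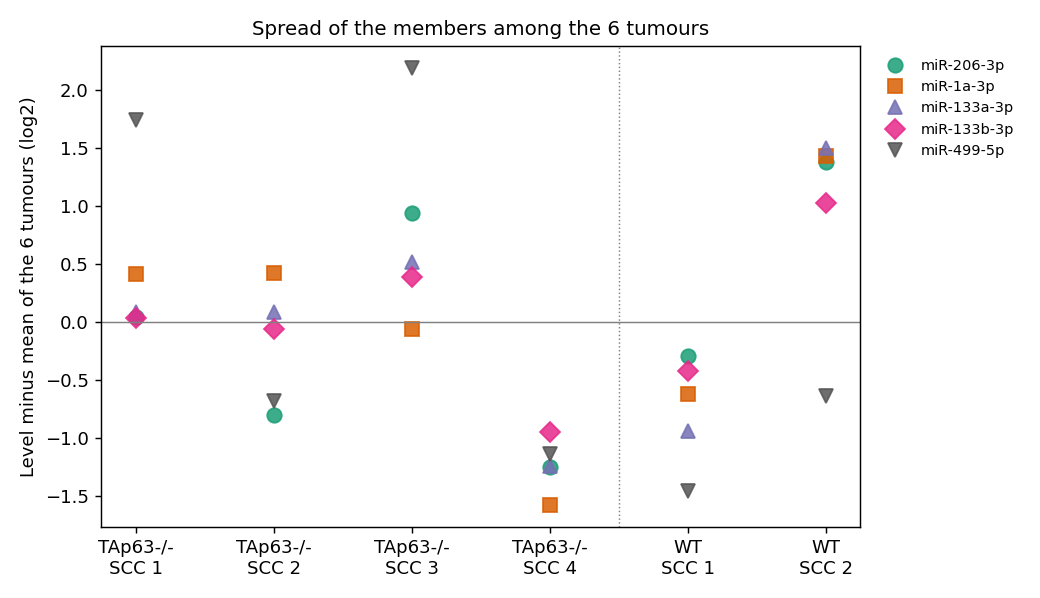
Log2 level of each miRNA minus its mean over the 6 tumours (vertical axis), for each tumour (horizontal axis), with 1 marker shape per miRNA. WT SCC library 2 is the highest and TAp63-/- SCC library 4 the lowest for miR-206-3p, miR-1a-3p, miR-133a-3p and miR-133b-3p, while miR-499-5p is highest in TAp63-/- SCC libraries 3 and 1.

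Among the other 543 tested miRNAs, the profiles most like each miRNA were mostly those of the set. Over all 12 libraries, miR-1a-3p was nearest to miR-133b-3p (Pearson r = 0.986), miR-133a-5p (0.982) and miR-206-3p (0.976). miR-133a-3p was nearest to miR-133b-3p (0.977), miR-1a-3p (0.974) and miR-133a-5p (0.958), and miR-133b-3p to miR-1a-3p, miR-133a-3p and miR-206-3p. miR-206-3p was nearest to miR-1a-3p (0.976), miR-133b-3p (0.976) and miR-133a-5p (0.964). These values describe 12 libraries that share 1 normalization and fall into skin and tumour clusters, and they mainly carry that contrast. miR-499-5p was above the floor in 5 libraries, under the minimum of 6 for this ranking. Over all 12 libraries its correlation with the other 4 ran from -0.50 to -0.39, which also mainly carries that contrast. Taking off the group means, as described next, gave positive values, from 0.49 (miR-1a-3p) to 0.80 (miR-206-3p). Its skin values, all at the floor, show no spread in that measure.

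With the group means taken off, which leaves the spread between libraries of a group, the nearest profiles were partly others. Those of miR-1a-3p were miR-346-3p (0.907), miR-2861 (0.888) and miR-133a-3p (0.885). Those of miR-133a-3p were miR-5100 (0.899), miR-1a-3p (0.885) and miR-133b-3p (0.874). For miR-133b-3p they were miR-133a-3p (0.874), miR-195a-5p (0.872) and miR-1a-3p (0.866). For miR-206-3p they were miR-5131 (0.916), miR-5100 (0.892) and miR-365-2-5p (0.832). The tumours, whose spread was wider, weigh most in these values, and the WT SCC libraries deviate by equal and opposite amounts. As the highest of 543 correlations over few libraries, the named profiles are descriptive only.

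Beside the muscle-restricted set, 20 tested miRNAs of a list linked to myogenesis but made in many tissues were examined. Averaged over the genotypes, 6 were lower and 1 higher in SCC, against 21.5% lower and 20.4% higher of all tested miRNAs. The list's median difference was -0.44 (log2), beside 0.04 over all tested. miR-181b-5p (-1.22), miR-128-3p (-1.23), miR-181a-5p (-0.94), which is known to rise during myoblast differentiation, and miR-26a-5p (-0.65) were among the lower ones. The rest of the lower ones were miR-378a-5p (-1.24) and miR-322-3p (-1.39), and miR-27b-3p was higher, at 0.65. The list's summed share was 21.2% to 25.4% in TAp63-/- SCC, 18.3% to 29.9% in WT SCC, 21.2% to 22.6% in TAp63-/- skin and 22.5% to 23.5% in WT skin. This sum mainly follows its most abundant members, miR-27b-3p, miR-22-3p and miR-26a-5p, and says little about the rest.

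Of 4 smooth muscle miRNAs, 1 was lower in SCC in the average, a share near the 21.5% of all tested miRNAs. It was miR-145a-3p, at -1.79 ± 0.30 (log2, SE; adjusted p = 7.19e-04, limma). In TAp63-/- mice 2 of the 4, miR-143-3p and miR-145a-3p, were called lower, against 18.2% of all tested miRNAs. In WT mice 1 was, against 9.38%. The summed share of the 4 was 2.29% to 6.09% in TAp63-/- SCC and 6.11% to 10.3% in TAp63-/- skin, ranges that nearly met. In WT mice the tissues overlapped, at 3.18% to 3.61% in WT SCC and 2.63% to 5.07% in WT skin. The share in TAp63-/- skin thus also lay above that in WT skin. The sum rests mainly on miR-143-3p, which was 1.33 higher in TAp63-/- than in WT skin (log2) but not called (adjusted p = 0.467, limma).

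Markers of other cell types were counted in the same averaged comparison, in which 21.5% of all tested miRNAs were lower and 20.4% higher, 41.9% in either direction. Of 6 fibroblast miRNAs 3 were lower, both melanocyte miRNAs were lower (median -3.47), 2 of 3 neural miRNAs were lower and 1 higher, and 2 of 8 keratinocyte miRNAs were lower and 1 higher. Of 4 leukocyte miRNAs 2 were higher, of 3 red cell miRNAs 2, and of 2 endothelial miRNAs 1. The remaining members of each list, among them 5 of 8 keratinocyte and 3 of 6 fibroblast miRNAs, were not called. Among these, miR-199a-3p and miR-199b-3p of the fibroblast list had identical results in every comparison, so they are not separate evidence. The lists are too short to set their shares against those of all tested miRNAs. The summed share of the melanocyte miRNAs was 0.00146% to 0.00318% in TAp63-/- SCC, 0.00576% to 0.0281% in WT SCC, 0.0383% to 0.107% in TAp63-/- skin and 0.0763% to 0.102% in WT skin. That of the red cell miRNAs was 0.0653% to 0.495% in TAp63-/- SCC, 0.105% to 0.243% in WT SCC, 0.0218% to 0.0520% in TAp63-/- skin and 0.0274% to 0.0406% in WT skin. The part of tissue composition in the change of the striated muscle miRNAs was not tested.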

How the data were processed

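Small RNA libraries of 6 tumours and 6 skin samples were analysed. Their log2 values stand in a single deposited table with 1251 rows, 1 per miRNA, and 12 columns named by sample title. The submitters' processing notes name mm10 as the build. Which aligner, counter and miRBase release were used is not given in the sources used here. Judged by its values, the table appears quantile normalized between libraries, with lower values set to log2 of 10. Of the rows, 647 were at this floor in all libraries and 60 were above it in 1 library. Tests covered the 544 rows with 2 or more libraries above the floor. Read counts are not kept, so precision rests on the spread between libraries.

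limma 3.58.1 in R 4.3.3 took the log2 values as deposited, with 4 group means, variances moderated along an abundance trend with a robust prior, 8 residual degrees of freedom and a median prior of 3.20. Benjamini-Hochberg adjustment ran over the 544 miRNAs of a contrast, with calls at an adjusted p under 0.05. The fit was tested on simulated data. Ratios between miRNAs were compared by exact permutation tests over libraries. Replicates were numbered in accession order and pair nothing. miRNAs are named by role: all 5 muscle miRNAs, the measured arms of related hairpins, the 3 nearest profiles of each miRNA, and called members of the marker lists. The members and lists were chosen with earlier results of these data known. Alternatives were median-ratio rescaling, quantile normalization repeated with the 5 rows left out, a minimum of 1 or 6 libraries over the floor, pseudocounts of 10 and 100, no trend or robust prior, library quality weights, only the groups of a contrast fitted, and each library left out in turn.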

Additional observations from a re-analysis of the deposited data

How the results depend on the processing

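The counts of striated muscle miRNAs called kept within 1.5 times the reported count under all alternatives in TAp63-/- mice, in the average, between genotypes and in the interaction. In WT mice 1 of them, miR-206-3p, was called with the WT groups fitted alone, and 2 to 4 with 1 library left out, the 2 being without WT SCC library 1; these fits hold fewer samples. No call between genotypes was made under any alternative. Some small differences that were not called changed sign. For TAp63-/- against WT skin these were -0.19 for miR-1a-3p and -0.13 for miR-133b-3p with quality weights, and 0.0093 for miR-133a-3p with median-ratio rescaling; for the ratio of miR-133b-3p to miR-133a-3p in TAp63-/- mice it was 0.0377 with a pseudocount of 10. The cause was not tested.

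With 1 library left out, TAp63-/- against WT skin ran from -0.24 to 0.25 for miR-1a-3p, -0.15 to 0.0571 for miR-133a-3p and -0.26 to 0.17 for miR-133b-3p. TAp63-/- against WT SCC ran from -1.64 to 0.43 for miR-1a-3p, -1.64 to 0.81 for miR-133a-3p, -1.17 to 0.28 for miR-133b-3p and -1.65 to 0.0221 for miR-206-3p. The interaction ran from -1.65 to 0.41, -1.60 to 0.84 and -1.19 to 0.26 for miR-1a-3p, miR-133a-3p and miR-133b-3p in that order. The ratio of miR-133b-3p to miR-133a-3p ran from -0.12 to 0.0281 in TAp63-/- mice and -0.11 to 0.12 over all libraries. All 4 ratio calls were made under each alternative tried.

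Among all tested miRNAs, the WT tumour count was 99, against 62 with the WT groups alone and 32 to 118 with 1 library left out. Between genotypes in skin it was 0, 22 with quality weights and 0 to 2 with 1 library left out. In SCC it was 1, against 0 with at least 6 libraries above the floor, a pseudocount of 100 or those groups alone, 2 without trend and robust prior, and 1 to 13 with 1 library left out. The interaction count was 0, and 0 to 11 with 1 library left out. Median-ratio rescaling moved the median of all tested miRNAs by 0.09 in TAp63-/- and 0.15 in WT mice. miR-499-5p has no value with at least 6 libraries above the floor. No paired analysis was possible because the labels give no replicate numbers shared between groups, and skin and tumours came from mice of different ages.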
